A study of Mus musculus with 12 samples.

Results

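Regions of open chromatin inside very long genes were compared between MS275 and vehicle, with the RNA of the same genes. Overlapping entries were merged within each treatment's list. An autosomal merged region counted when it lay wholly inside a protein-coding gene spanning over 500 kb in mm10, more than 5 kb from both ends of the gene. The MS275 list held 11424 such regions of its 161205 autosomal regions, and the vehicle list held 12047 of its 177318. The regions lay in 215 genes of 20661 autosomal protein-coding genes, whose windows together covered 177 Mb. The choice used gene span and position only, so neither region density nor RNA entered it. Cacna1e, Lrrc7 and Dnm3, which span 494, 495 and 496 kb, were just too short, with 26, 19 and 63 regions in the MS275 list and 25, 10 and 67 in the vehicle list. Edil3, Dock1 and Samd12, which span 502, 503 and 503 kb, were just long enough, with 38, 29 and 18 regions in the MS275 list and 40, 31 and 14 in the vehicle list.

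The tissue was lumbar dorsal root ganglia, L4 to L6, of C57BL/6 mice aged 6 to 8 weeks. Every mouse had its spinal dorsal columns cut, so the vehicle group is an injured control and no uninjured group is compared here. The MS275 group received the histone deacetylase inhibitor MS275 intraperitoneally at 12 mg/kg at injury and 2 h before the ganglia were taken at 24 h. The vehicle group received the carrier, a mix of Tween80, PEG300 and DMSO, at the same times. ATAC-seq, in which a transposase inserts adapters into open DNA, used 1 mouse per library and 3 libraries per treatment. The values analysed were 1 pooled list of regions per treatment, so region counts have no replicates and carry no test between treatments. RNA-seq used 3 libraries per treatment, each from a pool of 2 mice. MS275, also known as entinostat, blocks class I histone deacetylases throughout the body and not in one cell type. The ganglia were taken whole, with neurons, glia, vessels and blood cells.

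Genes of this length are a small class in mammals and are known for neuronal roles: cell adhesion molecules, ion channels, synaptic scaffolds and splicing regulators. Almost all of their length is intron, and the polymerase needs many hours to cross them. Introns of such genes hold enhancers and internal promoters that start shorter transcripts, and both appear in ATAC-seq as short open stretches. Histone deacetylases remove acetyl groups from histones, and their inhibitors raise histone acetylation.

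RNA libraries held 34992533 to 60370523 reads assigned to genes. Summed CPM (counts scaled to the normalised library size) of 9 skeletal muscle genes was 629, 89.7 and 95.4 in the 3 MS275 libraries, against 13.2, 6.29 and 55.9 in the 3 vehicle libraries, and all 9 were higher by the test. Summed CPM of 10 sensory neuron markers was 9536 to 10496 in MS275 libraries and 9395 to 9757 in vehicle libraries, and 2 of the 10 were higher by the test. Of 5 endothelial markers 3 were higher, with sums of 95.8 to 116 CPM in MS275 libraries and 77.5 to 86.6 CPM in vehicle libraries. Of 5 satellite glia markers 1 was higher and 1 lower, and of 2 spinal cord and central glia markers tested 1 was higher. Markers of myelinating Schwann cells (6), macrophages (5) and neutrophils (4 tested) had 0 calls. Of all genes tested 5.10% were higher and 5.89% lower. The part of these cells in the results was not tested. MS275 replicate 1 stood apart on the first principal component and was also highest in neutrophil genes, summing to 171 CPM there and to at most 45.4 CPM in each of the others. Leaving the 9 muscle genes out of the fit kept all 14 RNA calls described here. That takes out 9 rows and no other muscle RNA, so it does not test the part of muscle. Leaving out MS275 replicate 1 kept 12 of the 14.

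Internal promoters gave the clearest set of known elements inside these genes. The RefSeq table used here, on GRCm38.p6, lists 117 promoters that start more than 5 kb inside 72 of the 215 genes. Each spans 250 bases before to 50 bases after a transcript start. A region lay over 61 of them (52.1%) in both lists, over 7 (5.98%) in the MS275 list only, over 15 (12.8%) in the vehicle list only and over 34 (29.1%) in neither list. In 1 of the 7 (Tenm4) and 1 of the 15 (Magi1) the covering region itself overlapped a region of the other list that ended short of the promoter. Any overlap counted, with only 5 bases covered in Tenm4 and in Mecom. Neighbouring promoters that share 1 region were each counted, as in Cntn4 and Mgat4c for the vehicle list only. The median number of CG dinucleotides per promoter was 12 for those open in both lists, 6 for MS275 only, 7 for vehicle only and 3 for neither. The median GC content was 57.3%, 48.7%, 49.7% and 46.0% in the same order. The motif searched was CG, whose reverse complement is itself, so the count is the same on both strands. Across all 32851 promoters of the table the median was 7.

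Promoters within 5 kb of an end of the same long genes were open in both lists in 78.6% of 154 cases, with a median of 21 CG. Internal promoters of genes spanning 20 to 500 kb were open in both lists in 46.9% of 1829 cases, in the MS275 list only in 5.14% and in the vehicle list only in 7.49%. These shares are descriptions of 2 pooled lists.

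The sequences come from promoters open in both lists and from promoters listed once. They are read 5′ to 3′ on the strand of the gene, with every CG in capitals. Among those printed, CG counts overlapped, with 5 (Ank2) to 57 (Cacna1c) for both lists and 6 (Dpp6) to 10 (Trpm3) for 1 list. Magi2 encodes a scaffold of synapses and cell junctions, and one of its internal promoters lies at chr5:19226796-19227095, plus strand, 7.66 kb inside the gene. It carried the strongest region of all members in both lists, which also covers the promoter of the noncoding gene 4921504A21Rik, with −log10 p of 169 in the MS275 list and 202 in the vehicle list. Ank2 encodes the ankyrin that anchors channels to the axonal cytoskeleton. One of its internal promoters, at chr3:127409009-127409308, minus strand, was strong in both lists, at 53.5 and 55.7, with only 5 CG. Cacna1c encodes the pore of an L-type calcium channel. One of its internal promoters, at chr6:119108446-119108745, minus strand, holds 57 CG and was open in both lists, at 17.6 and 14.1. Another, at chr6:118757925-118758224, minus strand, holds 7 CG and was in the vehicle list only, at 6.99. Trpm3 encodes a heat-gated cation channel of sensory neurons. Its internal promoter at chr19:22447958-22448257, plus strand, was in the vehicle list only, at 5.32, with 10 CG. Dpp6 encodes an auxiliary subunit of potassium channels. One of its internal promoters, at chr5:27048949-27049248, plus strand, was in the MS275 list only, at 6.81, with 6 CG.
Magi2: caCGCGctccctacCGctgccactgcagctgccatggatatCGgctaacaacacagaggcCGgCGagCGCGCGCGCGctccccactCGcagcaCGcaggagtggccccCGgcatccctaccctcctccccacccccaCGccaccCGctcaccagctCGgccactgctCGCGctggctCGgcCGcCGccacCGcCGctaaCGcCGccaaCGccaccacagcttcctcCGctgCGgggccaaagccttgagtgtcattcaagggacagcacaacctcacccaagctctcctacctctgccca
Ank2: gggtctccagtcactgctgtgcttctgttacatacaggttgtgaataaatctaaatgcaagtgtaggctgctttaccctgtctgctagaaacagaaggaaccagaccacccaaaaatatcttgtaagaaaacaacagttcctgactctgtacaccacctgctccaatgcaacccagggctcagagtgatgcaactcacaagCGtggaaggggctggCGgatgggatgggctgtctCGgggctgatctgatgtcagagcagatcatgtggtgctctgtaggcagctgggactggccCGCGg
Cacna1c, 57 CG: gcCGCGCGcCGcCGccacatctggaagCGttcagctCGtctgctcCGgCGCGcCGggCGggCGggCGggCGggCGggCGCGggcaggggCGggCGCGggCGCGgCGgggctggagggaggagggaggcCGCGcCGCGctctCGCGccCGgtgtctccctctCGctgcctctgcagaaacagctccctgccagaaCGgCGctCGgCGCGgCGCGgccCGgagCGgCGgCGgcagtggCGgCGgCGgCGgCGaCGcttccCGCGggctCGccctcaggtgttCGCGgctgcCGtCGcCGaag
Cacna1c, 7 CG: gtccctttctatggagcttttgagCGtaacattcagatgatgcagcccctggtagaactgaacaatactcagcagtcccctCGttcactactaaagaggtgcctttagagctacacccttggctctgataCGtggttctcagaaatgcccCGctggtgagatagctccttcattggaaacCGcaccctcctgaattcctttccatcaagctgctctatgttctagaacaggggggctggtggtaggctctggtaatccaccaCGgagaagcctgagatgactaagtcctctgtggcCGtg
Trpm3: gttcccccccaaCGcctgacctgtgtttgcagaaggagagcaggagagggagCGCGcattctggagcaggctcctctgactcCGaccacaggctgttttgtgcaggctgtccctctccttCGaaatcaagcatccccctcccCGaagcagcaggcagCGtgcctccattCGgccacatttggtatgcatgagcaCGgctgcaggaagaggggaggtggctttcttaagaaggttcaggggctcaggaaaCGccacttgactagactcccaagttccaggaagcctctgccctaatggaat
Dpp6: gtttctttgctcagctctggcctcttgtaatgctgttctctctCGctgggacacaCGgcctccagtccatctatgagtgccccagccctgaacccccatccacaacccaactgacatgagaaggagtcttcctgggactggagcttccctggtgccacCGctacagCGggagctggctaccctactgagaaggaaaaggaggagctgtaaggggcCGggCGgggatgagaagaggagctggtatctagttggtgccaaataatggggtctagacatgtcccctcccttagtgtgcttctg

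**Figure D1:**
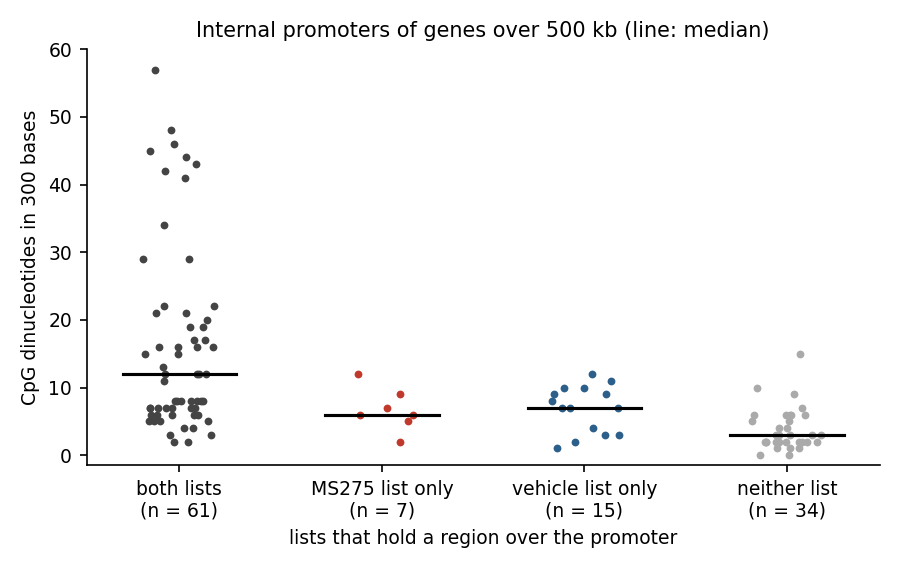
CG dinucleotides (CpG) in each of the 117 internal promoters of genes over 500 kb, each 300 bases long, grouped by the list that holds a region over it; the line is the median. Promoters in both lists reach 57 CG (Cacna1c) with a median of 12, while those in 1 list reach at most 12 and the median of those in neither list is 3.

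Regions were sparse inside the long genes in both lists. Density was 6.44 merged regions per 100 kb in the MS275 list and 6.79 in the vehicle list, a ratio of 0.948 (95% exact interval of counting error 0.924 to 0.973). The regions covered 2.72% of the windows in the MS275 list and 3.04% in the vehicle list. Genes of 20 to 100 kb, numbering 7262, held 9.45 per 100 kb in the MS275 list and 11.7 in the vehicle list, a ratio of 0.806 (0.792 to 0.820). The ratio was 0.868 (0.852 to 0.884) in 1622 genes of 100 to 250 kb and 0.923 (0.903 to 0.945) in 475 genes of 250 to 500 kb. Across all autosomal regions it was 0.909 (0.903 to 0.915), and for regions outside every annotated gene 0.982 (0.970 to 0.994). The shortfall of the MS275 list was thus smaller inside long genes than inside shorter ones. These span classes are not matched for density, and ratios were lower in dense genes of both spans, as given below. Intervals treat regions as independent, which neighbours in 1 gene are not.

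At other cuts the place of long genes against all autosomal regions varied, and values of the shorter span classes are not given. With only regions of −log10 q of at least 5, the ratio inside long genes was 0.612, below the 0.713 of all autosomal regions. With the strongest regions kept until both lists were of equal size, it was 1.05, still above all autosomal regions, whose ratio is then 1. With regions that overlap another gene left out, the ratio inside long genes was 0.946. That is below the 0.975 of the 59447 MS275 and 60960 vehicle autosomal regions which that cut left.

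**Figure D2:**
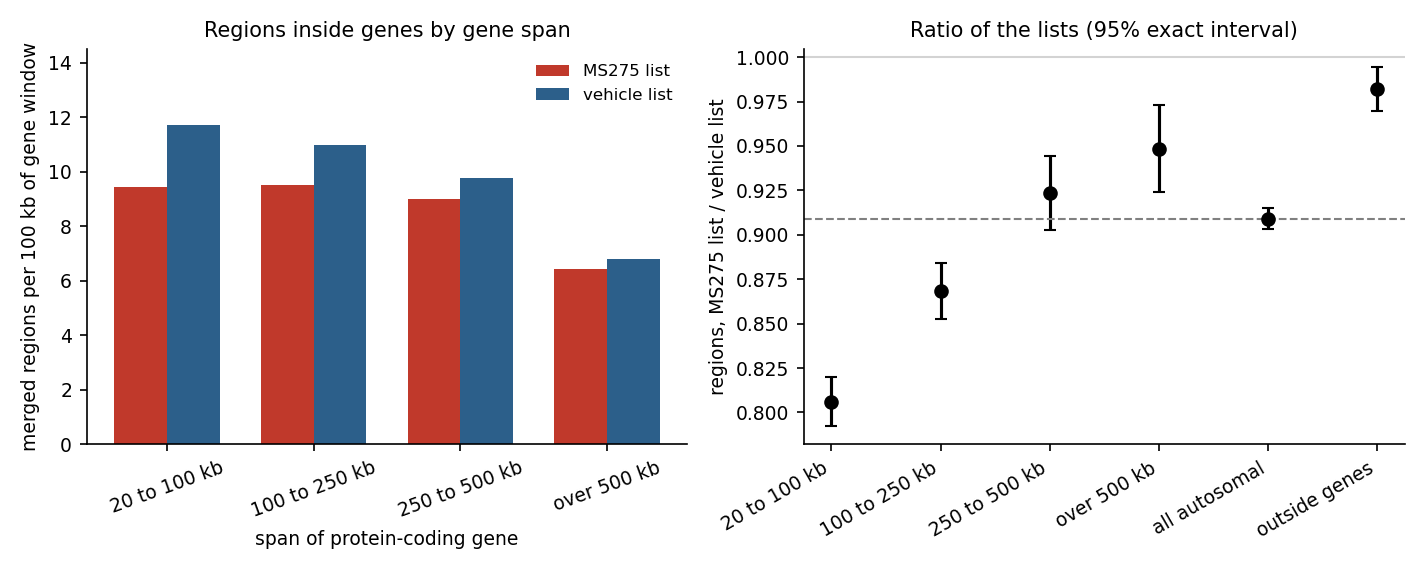
Left, merged regions per 100 kb of gene window by span of the protein-coding gene, MS275 list in red and vehicle list in blue; right, the ratio of the lists with 95% exact intervals of counting error, the dashed line at the ratio of all autosomal regions. Density falls to 6.44 and 6.79 in genes over 500 kb, and the ratio is highest of the 4 classes there, at 0.948.

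Single genes went both ways. Of the 215 genes, 113 had more regions in the MS275 list, 95 had fewer and 7 had equal numbers. The split depended on the cut: with lists of equal size 139 had more and 70 fewer, and at −log10 q of at least 5, 31 had more and 160 fewer. Median density per gene was 4.67 per 100 kb in the MS275 list and 4.52 in the vehicle list, and densities in the lists ranked the genes alike (Spearman rho 0.92 over 215 genes). Of the 193 genes with at least 30 regions in both lists together, 25 (13.0%) had at least 1.5 times more in the MS275 list. The share was 5.34% over all 1348 autosomal protein-coding genes with that many regions and 4.07% of the 1155 shorter ones. At least 1.5 times fewer were found in 14 of the 193 (7.25%), against 15.4% over all 1348 and 16.7% of the shorter ones. The median log2 ratio, MS275 over vehicle with 0.5 added to each count, was 0.00 for long genes (SD 0.49 over genes) and −0.20 for shorter genes (SD 0.45). A minimum of 30 regions favours dense genes among the shorter ones, and ratios were lower in dense genes of both spans, as given below. These shares and medians are therefore not matched for density.

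**Figure D3:**
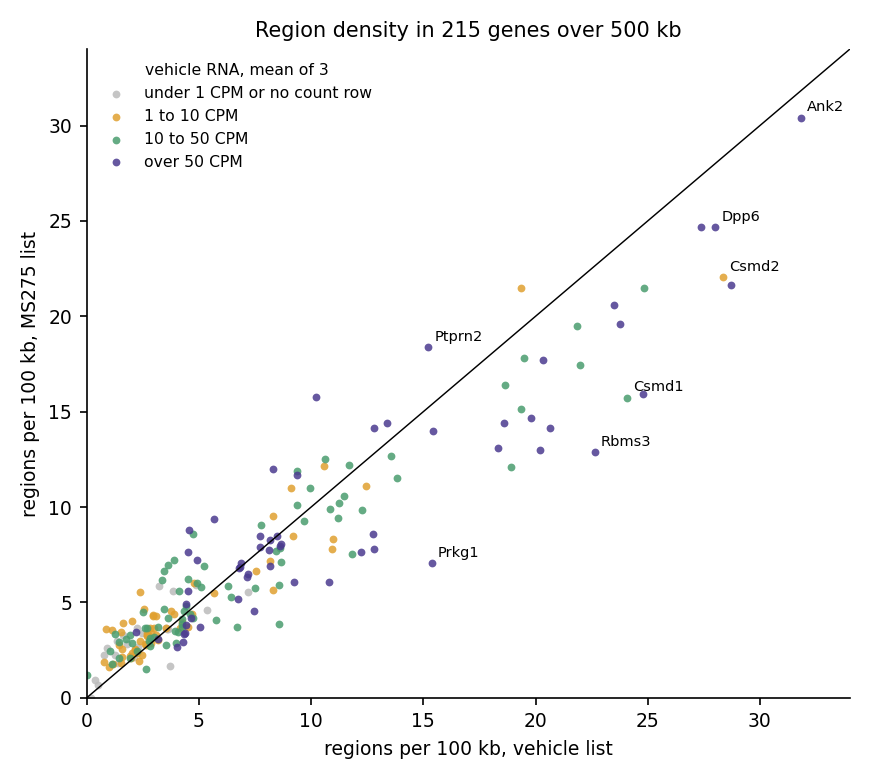
Each point is 1 of the 215 genes over 500 kb, placed by regions per 100 kb in the MS275 list (vertical) and the vehicle list (horizontal), coloured by mean vehicle CPM; the line marks equal density. Dense genes such as Rbms3, Csmd1 and Prkg1 lie below the line, and Ank2 is the densest at 30.4 and 31.8.

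The 10 genes with most regions all had fewer in the MS275 list. Csmd1, a membrane protein with complement-control domains, held 257 regions in the MS275 list and 393 in the vehicle list, a ratio of 0.654 (0.557 to 0.767). Robo2, a receptor for Slit guidance cues, held 274 and 314. Rbfox1, a neuronal splicing regulator, held 219 and 282, a ratio of 0.777 (0.648 to 0.930). Dpp6, an auxiliary subunit of potassium channels, held 222 and 252, and Rbms3, an RNA-binding protein, held 135 and 237. Ank2, Camta1, Grip1, Enox1 and Csmd2 completed the 10 richest genes, with 126 to 173 regions in the MS275 list and 152 to 186 in the vehicle list. None of the 10 passed the RNA test, with log2 fold changes of −0.19 (Csmd2) to 0.08 (Dpp6).

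The 6 highest ratios were in sparse genes. Sugct, a mitochondrial enzyme of glutarate metabolism, held 30 regions in the MS275 list and 7 in the vehicle list, a ratio of 4.29 (1.84 to 11.6). Fhit, a nucleotide hydrolase known as a tumour suppressor, held 63 and 26, a ratio of 2.42 (1.51 to 3.99). Inpp4b, a lipid phosphatase, held 28 and 9. Dpyd, which starts pyrimidine breakdown, held 29 and 11, and Immp2l, a mitochondrial peptidase, held 51 and 22. Densities of these 5 were 3.37 to 5.53 per 100 kb in the MS275 list and 0.846 to 2.39 in the vehicle list. With regions of −log10 q of at least 5, where all long genes together had a ratio of 0.612, the log2 ratios of Fhit and Immp2l were −0.39 and −0.13, those of Sugct and Dpyd 0.00, and that of Inpp4b 0.21. Fhit and Immp2l thus held fewer regions in the MS275 list at this cut. The 5 genes were chosen for high ratios in these same lists, and adding 0.5 to each count pulls ratios of sparse genes toward 0. The cut is therefore no separate support for their ratios.

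The 6 lowest ratios were in genes of several roles. Rora, a nuclear receptor, held 28 regions in the MS275 list and 62 in the vehicle list, a ratio of 0.452 (0.278 to 0.716). Prkg1, the cyclic GMP-dependent kinase of nociceptors, held 84 and 183, a ratio of 0.459 (0.350 to 0.597). Pard3, a polarity protein, held 20 and 36. Rims1, a scaffold of the presynaptic active zone, held 31 and 55. Rbms3 followed, and Cntnap2, an adhesion protein beside the nodes of myelinated axons, held 101 and 166, a ratio of 0.608 (0.470 to 0.784). Log2 ratios of the 6 were −1.10 to −1.64 at −log10 q of at least 5, where 160 of the 215 genes had fewer MS275 regions. The 6 were chosen for low ratios in these same lists, so the cut is no separate support for them. None of these 12 genes passed the RNA test.

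The 6 longest genes also differed among themselves. Ptprd, a receptor phosphatase that organises synapses, spans chr4:75941237-78211742 and held 83 regions in the MS275 list and 61 in the vehicle list. Macrod2, an ADP-ribosyl hydrolase at chr2:140395303-142392966, held 152 and 90, a ratio of 1.69 (1.29 to 2.22). Lrp1b, a lipoprotein receptor, held 68 and 55. Lsamp, an adhesion protein of limbic circuits, held 64 and 94, a ratio of 0.681 (0.488 to 0.945), and Dlg2, a postsynaptic scaffold, held 86 and 90. Cntnap2, at chr6:45060061-47301393, and Lsamp were the 2 of the 6 with an interval wholly below 1. Span itself was nearly unrelated to the ratios (rho 0.02 over 215 genes).

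Grouped by role, channel and receptor genes had fewer regions in the MS275 list in 14 of 19 cases and more in 5, with 1123 regions in the MS275 list and 1290 in the vehicle list, a ratio of 0.871 (0.803 to 0.944). Asic2, an acid-sensing channel, held 84 and 138, Cacna2d3, a calcium channel subunit linked to heat pain, 106 and 148, and Kcnma1, a calcium-activated potassium channel, 53 and 83. Scaffold and synapse genes had fewer in 14 of 17 cases, with a summed ratio of 0.909 (0.836 to 0.989). Erc2, of the presynaptic active zone, held 110 and 171. Regulators of RNA and transcription had more regions in the MS275 list in 12 of 20 cases, yet a summed ratio of 0.878 (0.814 to 0.948). Rbfox1, Rbms3, Rora and Auts2, which are rich in regions or low in ratio, are among the 8 with fewer.

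Adhesion genes had more regions in the MS275 list in 19 of 33 cases and fewer in 12, with a summed ratio of 0.956 (0.895 to 1.02). Negr1, an adhesion protein of the same family as Lsamp, held 54 in the MS275 list and 29 in the vehicle list. Axon guidance genes had a ratio of 1.01 (0.906 to 1.12). Robo1, like Robo2 a Slit receptor, held 87 and 48, a ratio of 1.81 (1.26 to 2.63), beside 0.873 (0.739 to 1.03) for Robo2. Phosphatases and kinases, a list of 13 that also took in genes of other roles such as the sarcoglycan Sgcz, had a ratio of 0.943 (0.857 to 1.04). The 13 genes known in human as common fragile sites had 818 and 736 regions, a ratio of 1.11 (1.00 to 1.23), led by Fhit, Immp2l, Macrod2 and Naaladl2, a peptidase-like gene with 40 and 18. Csmd1, Csmd2, Csmd3 and Lrp1b together had a ratio of 0.758 (0.672 to 0.854), set mainly by Csmd1. Over all 215 genes 113 had more and 95 fewer, and the groups share members, so none of these ratios is called particular to its group.

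Fewer members were shared between the lists than autosomal regions in general. Of the MS275 list's members, 5093 (44.6%) overlapped a vehicle region by at least 1 bp, and 5042 of the vehicle list's (41.9%) overlapped an MS275 region. The shares over all autosomal regions were 52.7% and 47.4%. In genes of 20 to 100 kb they were 53.5% and 42.7%, and outside every annotated gene 44.3% and 43.0%, close to the members. Shared members were stronger and wider within each list. Median −log10 p, the authors' value, was 5.03 for shared and 3.65 for unshared members of the MS275 list, and 5.64 and 4.27 in the vehicle list. Median width was 449 and 315 bp in the MS275 list, and 473 and 338 bp in the vehicle list. More than 1 summit was listed in 40.4% of shared and 20.1% of unshared MS275 members, and in 43.8% and 23.4% of vehicle members.

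The strongest members stood in both lists. After the Magi2 promoter came a 288 bp region in Zfp804b, a zinc finger gene, at chr5:7276751-7277038 in the MS275 list, with −log10 p of 166 there and 183 in the vehicle list. A region in Astn2, a neuronal migration gene, at chr4:65604613-65605783, had 136 and 160. It lay over the promoter of Trim32, a ubiquitin ligase gene nested inside Astn2. Another Astn2 region at chr4:65495825-65496977 had 117 in the MS275 list and 48.2 in the vehicle list. A region in Nfia, a nuclear factor gene, at chr4:97772070-97772587 in the vehicle list, had 83.8 in the MS275 list and 139 in the vehicle list. These values rank regions within a list and are not comparable as amounts between lists.

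Members listed once were far weaker. The strongest of the MS275 list only was in Erc2 at chr14:27808165-27808426, with −log10 p of 17.8 and a 2.95-fold enrichment, followed by regions in Syne1, Pcdh15, Nrg1 and Csmd1 at 13.6 to 12.3. The strongest of the vehicle list only were also in Erc2, at chr14:27876063-27876785 (26.8, 3.09-fold) and chr14:28251907-28252190 (23.3, 2.99-fold). Regions in Kirrel3, Dpp10 and Nfia followed at 20.9 to 19.01. Erc2 thus held the strongest unshared member of each list, and that of the vehicle list lay over the promoter of another annotated gene, Gm34996.

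Along the gene, density was higher toward the 3′ end in both lists. In the 169 genes whose strand the promoter table gives, the first 10% of the gene's length held 5.50 regions per 100 kb in the MS275 list and 6.19 in the vehicle list. The last 10% held 8.26 and 8.53. The ratio of the lists over 10 equal steps stayed between 0.889 in the first and 1.01 in the seventh, without an order along the gene.

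Dense genes were those with more RNA reads. Over the 209 genes matched to a count row, region density was higher in genes with higher mean vehicle CPM, with a rho of 0.52 for the MS275 list and 0.57 for the vehicle list. CPM is not divided by transcript length, which the tables used here do not give, so it ranks genes by reads and not by transcript number. The ratio of the lists ran the other way (rho −0.37). In 17 genes under 1 CPM density was 2.86 per 100 kb in the MS275 list and 2.14 in the vehicle list, a ratio of 1.34 (1.13 to 1.58). In 59 genes of 1 to 10 CPM it was 4.43 and 4.02, a ratio of 1.10 (1.04 to 1.17). In 76 genes of 10 to 50 CPM it was 6.58 and 6.81, a ratio of 0.966 (0.924 to 1.01). In 57 genes over 50 CPM it was 9.44 and 11.1, a ratio of 0.853 (0.821 to 0.887), and 37 of them had fewer regions in the MS275 list against 17 with more.

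Genes of 100 to 500 kb had ratios close to those of the long genes over 50 CPM and lower ones under 50 CPM. Over 50 CPM their ratio was 0.836 (0.818 to 0.854), close to that of the long genes. Under 1 CPM it was 0.962 (0.907 to 1.02), and at 1 to 10 CPM 0.992 (0.955 to 1.03), both below the long genes' values. At 10 to 50 CPM it was 0.911 (0.889 to 0.934), beside 0.966 in the long genes. The difference between the span classes was not tested, since neither list has replicates. By density, the 40 sparsest long genes, under 2.5 regions per 100 kb on average, had 748 regions in the MS275 list and 502 in the vehicle list, a ratio of 1.49 (1.33 to 1.67), and 35 of the 40 had more in the MS275 list. The 275 genes of 100 to 500 kb below the same density had a ratio of 1.10 (0.993 to 1.23). At 2.5 to 5 per 100 kb the ratios were 1.11 in 72 long genes and 1.11 in 390 shorter ones. At 5 to 10 per 100 kb the long genes were lower, at 0.958 in 55 genes beside 0.988 in 547 shorter ones. At 10 or more per 100 kb the ratios were 0.837 in 48 long genes and 0.839 in 885 shorter ones.

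The ratio inside a gene went with the ratio beside it. Windows of the gene's own length, split between both sides, held 10207 regions in the MS275 list and 10372 in the vehicle list, a ratio of 0.984. Over 215 genes the log2 ratio inside and the log2 ratio in these flanks had a rho of 0.56, as a description, since both come from the same 2 lists. The 6 highest-ratio genes together held 251 and 97 regions inside (2.59) and 277 and 204 in their flanks (1.36). The 6 lowest held 399 and 739 inside (0.540) and 297 and 420 in their flanks (0.707). The flanks leaned the same way as the genes, by less. These genes were chosen for extreme inside ratios in the same lists, so the smaller lean of the flanks is no separate result.

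**Figure D4:**
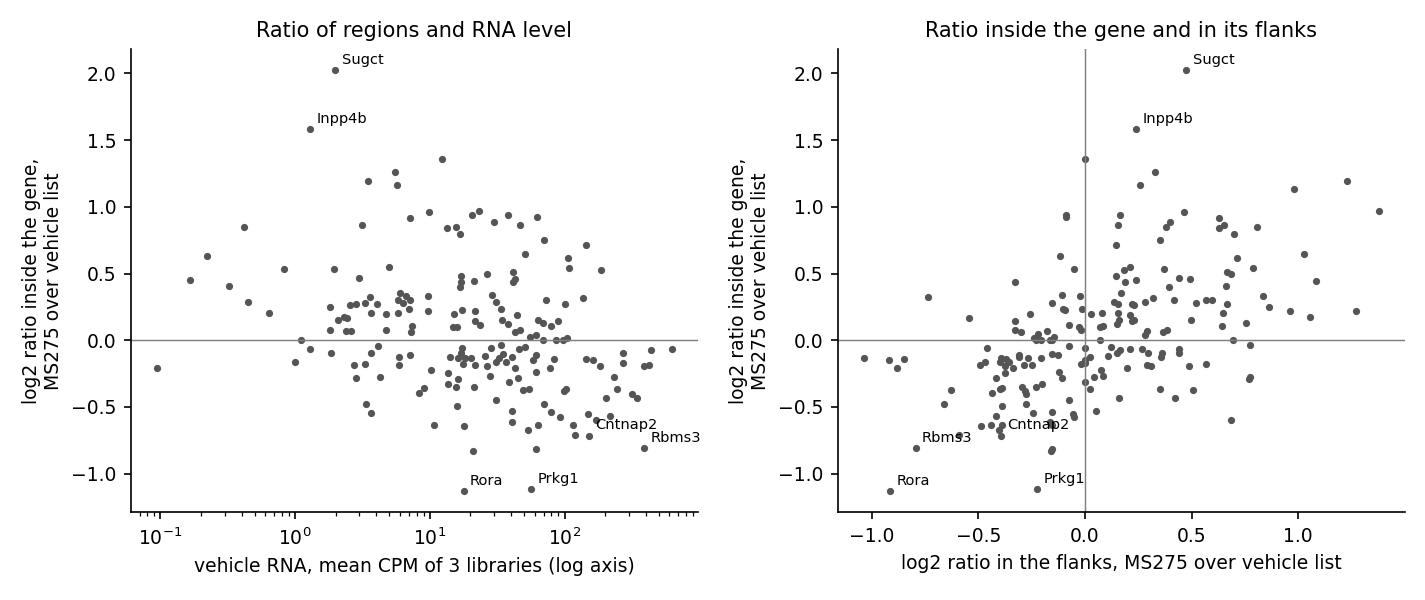
Log2 ratio of regions inside each long gene with at least 30 regions (MS275 over vehicle list), against mean vehicle CPM on a log axis (left) and against the log2 ratio in the gene's flanks (right). Genes with more reads lie lower on the left, and inside and flank ratios lie along a rising band on the right, with Rora and Rbms3 low on both.

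RNA of the long genes leaned slightly lower with MS275. Of the 215 genes, 202 were tested and 13 were not, 7 for low counts and 6 without a count row. By edgeR's quasi-likelihood test, with Benjamini-Hochberg adjusted p under 0.05 over all 16819 genes tested, 14 of the 202 passed. Of these, 2 rose and 12 fell (0.990% and 5.94%), against 5.10% and 5.89% of all genes tested and 11.0% in either direction. In all, 37 of the 202 had an unadjusted p under 0.05, against 4787 of all 16819 genes tested, which is a larger share. The share that rose went down with span, from 7.44% of tested genes of up to 20 kb through 4.37%, 3.58% and 2.43% in the classes between. The share that fell was 5.19%, 8.21%, 6.28% and 4.20% in the 4 shorter classes, so the share in long genes was near the background. The median log2 fold change was −0.05 in long genes and 0.00 over all genes tested. Of long genes 64.9% lay below 0, against 49.5% of all genes tested. Genes of 250 to 500 kb were near the long genes, with a median of −0.04 and 59.1% below 0. In bulk ganglia, fewer cells of a type and less RNA per cell cannot be told apart.

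The 12 lower calls depended on single libraries. Without vehicle replicate 1 or vehicle replicate 2 edgeR called 0 long genes lower, with 21 and 18 lower at an unadjusted p under 0.05, and without vehicle replicate 3 there were 2. Without MS275 replicate 3 there was 1, and without MS275 replicate 2 there were 20. Calls over all genes moved too, to 1.53% of genes tested without vehicle replicate 2 and 16.1% without MS275 replicate 2. Schip1 and Smyd3 passed in every one of these fits.

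The 2 genes that rose were Schip1 and Smyd3. Schip1, a partner of the tumour suppressor merlin found at nodes of Ranvier and axon initial segments, had 79.8, 81.2 and 76.9 CPM in MS275 libraries and 61.7, 59.0 and 62.9 CPM in vehicle libraries. All MS275 libraries were above all vehicle libraries. The log2 fold change was 0.37 (SE 0.04), with an edgeR adjusted p of 0.00253. The annotated gene overlaps the read-through gene Iqschfp, so reads of both may be split. Of its 2 internal promoters, the one at chr3:68572118-68572417, 508 kb from the gene's start and with 11 CG, was open in both lists. The other, with 2 CG, was in neither. The gene held 38 regions in the MS275 list and 45 in the vehicle list. Smyd3, a lysine methyltransferase, had 57.3, 56.7 and 51.3 CPM in MS275 libraries and 41.0, 43.4 and 44.5 CPM in vehicle libraries, again without overlap. The log2 fold change was 0.36 (SE 0.06), with an edgeR adjusted p of 0.00762. Its regions numbered 68 and 65.

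Among the 12 that fell, adhesion genes were the most numerous, at 4 of the 33 in their list, beside 12 of all 202 long genes tested. Tenm3, a teneurin that matches neurons to partners, had 29.8, 33.0 and 31.5 CPM in MS275 libraries and 38.6, 38.9 and 36.5 CPM in vehicle libraries. The MS275 libraries lay below every vehicle library, at a log2 fold change of −0.27 (SE 0.06, edgeR adjusted p 0.0179). Adgrl3, a latrophilin that binds teneurins, had 33.2, 36.5 and 34.4 CPM with MS275 and 40.5, 42.9 and 40.0 CPM with vehicle. Its log2 fold change was −0.25 (SE 0.06, edgeR adjusted p 0.0243), without overlap. Ctnnd2, a catenin of dendrites, had 62.0, 75.9 and 71.8 CPM with MS275 and 81.0, 90.0 and 88.4 CPM with vehicle, with MS275 replicate 1 lowest. Opcml, an adhesion protein related to Lsamp, averaged 89.7 ± 6.01 CPM with MS275 and 104 ± 1.58 CPM with vehicle (SD, n = 3 each). Over the whole adhesion list the median log2 fold change was −0.07, beside −0.05 for all long genes tested.

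In the channel list, 2 of 19 fell, beside 12 of all 202 long genes tested and 5.89% of all genes tested. Trpm3 had 19.6, 24.4 and 18.5 CPM in MS275 libraries and 29.7, 27.5 and 27.9 CPM in vehicle libraries. MS275 replicate 2 came nearest to the vehicle libraries but did not reach them. The log2 fold change was −0.44 (SE 0.10), with an edgeR adjusted p of 0.0234. Trpm3 held 23 regions in the MS275 list and 24 in the vehicle list, and the vehicle-only region over its internal promoter is described above. Cacna1c had 25.6, 28.6 and 24.2 CPM with MS275 and 31.3, 32.1 and 30.05 CPM with vehicle, without overlap. Its log2 fold change was −0.25 (SE 0.07, edgeR adjusted p 0.0466). It held 117 and 131 regions.

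Magi2, the scaffold whose promoter is printed above, had 17.6, 17.3 and 17.5 CPM in MS275 libraries and 20.5, 20.5 and 20.3 CPM in vehicle libraries. Libraries of each group were close together and the groups did not overlap. The log2 fold change was −0.23 (SE 0.06), with an edgeR adjusted p of 0.0381. Magi2 and Zbtb20 were the called genes with at least 30 regions whose counts differed at least 1.5-fold between the lists. Zbtb20 held 20 and 30, a ratio of 0.667 (0.359 to 1.21). Magi2 held 98 regions in the MS275 list and 51 in the vehicle list, a ratio of 1.92, while its RNA was lower with MS275. Sox6, a transcription factor of neuronal and muscle development, had 5.08, 4.79 and 4.60 CPM with MS275 and 7.28, 6.86 and 5.88 CPM with vehicle, without overlap. Its log2 fold change of −0.47 was the largest of the 14. Of its 5 internal promoters, the one at chr7:116030998-116031297, with 13 CG, was open in both lists, and the other 4, with 2 to 4 CG, were in neither.

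The other 4 genes that fell were Pard3b, Lama2, Arhgap26 and Zbtb20. Pard3b, a relative of the polarity protein Pard3, averaged 4.64 ± 0.363 CPM with MS275 and 6.31 ± 0.269 CPM with vehicle (SD, n = 3 each). Lama2, a laminin chain of the basal lamina around Schwann cells and muscle fibres, averaged 20.4 ± 1.22 and 24.9 ± 1.32 CPM. Skeletal muscle markers moved the opposite way to Lama2, and their part in its value was not tested. Arhgap26, a GTPase-activating protein, and Zbtb20, a transcriptional repressor, fell by 0.17 and 0.18 on the log2 scale, the smallest changes of the 14. Both overlap other coding genes, and the sources used here do not say how reads of overlapping genes were assigned.

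**Figure D5:**
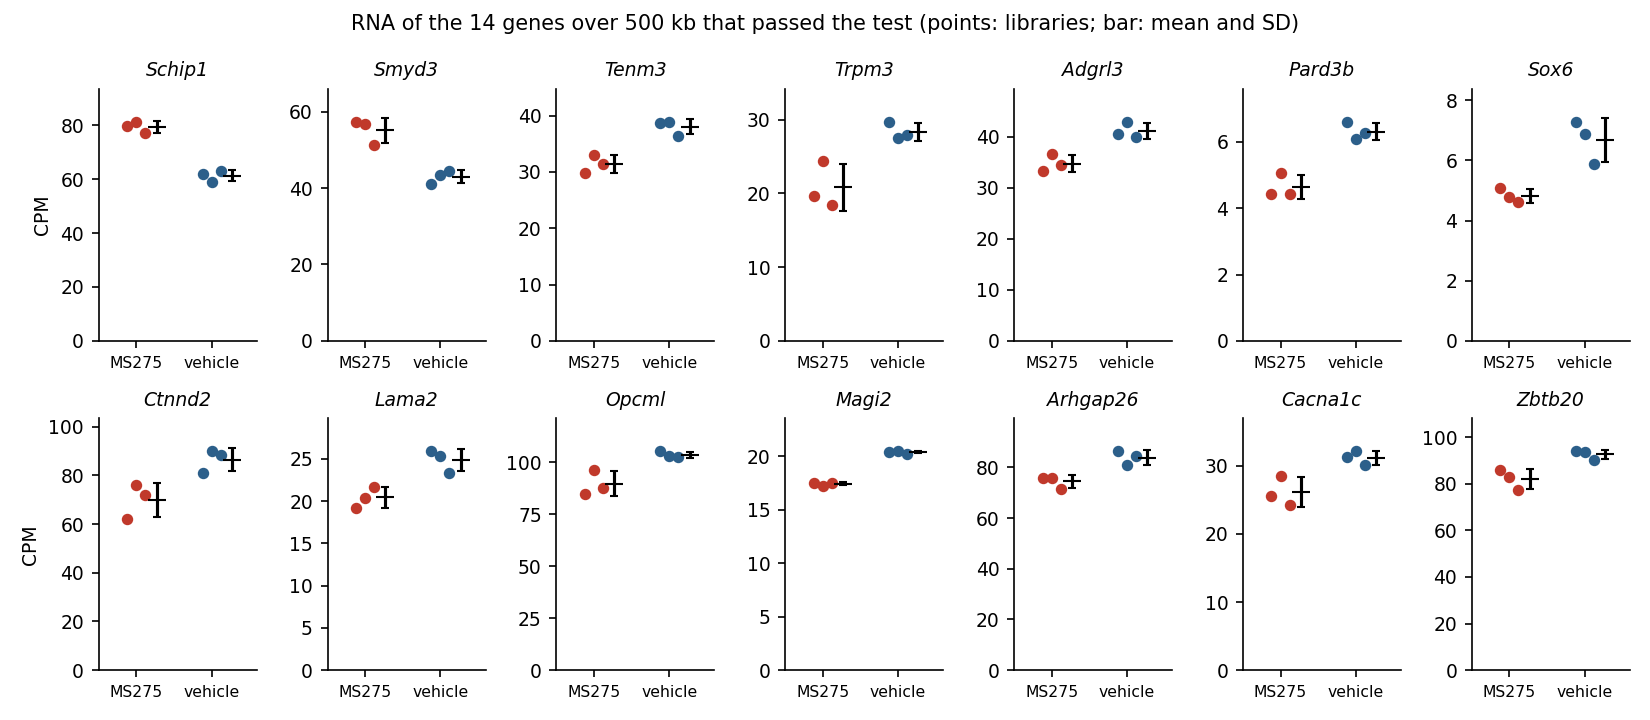
CPM in each library for the 14 genes over 500 kb that passed the RNA test, MS275 libraries in red and vehicle libraries in blue, with the mean and SD of 3 libraries as a bar; each vertical axis starts at 0. In each of the 14 panels the MS275 and vehicle libraries do not overlap; Schip1 and Smyd3 are higher with MS275 and the other 12 lower.

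Scaffolds had 1 lower call of 17 (Magi2), regulators 1 higher (Smyd3) and 1 lower (Sox6) of 20, and fragile site genes 1 lower of 12 tested (Pard3b). All 202 long genes tested had 12 lower and 2 higher calls. Axon guidance genes (9), phosphatases and kinases (13), and the Csmd and Lrp1b group (4) had 0 calls by edgeR. At an unadjusted p under 0.05 they had 0, 4 and 0, all 4 lower, beside 31 lower of all 202 long genes tested. DESeq2 called 0, 1 and 0. Median log2 fold changes of the groups ranged from −0.17 in the Csmd and Lrp1b group to 0.00 in the regulators, beside −0.05 for all long genes tested.

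Region counts and RNA changes of the same genes showed little relation. The rho between the log2 ratio of regions and the RNA log2 fold change was −0.04 over 202 genes. The 12 genes whose RNA fell held 661 regions in the MS275 list and 623 in the vehicle list, a ratio of 1.06 (0.950 to 1.19). The 2 that rose held 106 and 110, a ratio of 0.964 (0.731 to 1.27), and the 188 not called had a ratio of 0.938 (0.913 to 0.963). Several genes with large differences in regions had small log2 RNA changes, such as Sugct at −0.01 (SE 0.16), Rora at −0.06 (SE 0.08) and Rbms3 at 0.01 (SE 0.04). Fhit was at 0.20 (SE 0.10). Immp2l, with 51 regions in the MS275 list and 22 in the vehicle list, was at 0.38 (SE 0.14), near the 0.37 of Schip1. It was not called, with an edgeR adjusted p of 0.116. Prkg1, with 84 regions in the MS275 list against 183 in the vehicle list, had 48.5 ± 5.17 CPM with MS275 and 56.4 ± 1.69 CPM with vehicle (SD, n = 3 each), and missed the edgeR threshold with an adjusted p of 0.0804. Macrod2, with 152 against 90 regions, had 64.8 ± 1.12 CPM and 70.8 ± 0.665 CPM in the same order, with an edgeR adjusted p of 0.0612.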

How the data were processed

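The 12 libraries fall into 4 groups of 3 by the assay and treatment in their titles, and the series' design text calls the triplicates biological. The deposited RNA files hold raw read counts per gene symbol, not normalised. Rows that name no gene, 18.9% to 20.6% of reads, stayed out. The deposited ATAC lists pool the replicates of a treatment, and each entry carries a score, a summit position, the fold ratio over background, and −log10 p and q, per the files' layout. Fold and −log10 values are the authors' and serve to rank regions within a list. Per the submitters' processing notes reads were placed on mm10, and FastQC 0.10.1, STAR 2.7.0, limma 3.38.3 and edgeR 3.24.3 are named, under R 3.5.0. The sources used here name neither the peak caller nor the read counter and its strandedness. Gene spans came from a RefSeq table on GRCm38.p6 without exons or strand, so regions are not called exonic or intronic. Of the 215 genes, 200 matched a count row by symbol and 9 by synonym, and 198 overlap another annotated gene. Per-gene sums count a region in each long gene that holds it. The counts went into edgeR 4.0.16 under R 4.3.3 (TMM, filterByExpr, 2-sided quasi-likelihood test with Benjamini-Hochberg adjustment), modelling treatment alone, and 16819 of 44345 rows were tested. The biological coefficient of variation was 8.62%. The fit was tested on simulated data with known changes. Each SE is the log2 fold change over the root of its F. Interval bounds for ratios are 95% exact (Clopper-Pearson) bounds of the MS275 share of regions and cover counting error only. ATAC depth is unknown here. Named genes were the 10 with most regions, the 6 highest and 6 lowest ratios among genes with at least 30 regions, up to 12 RNA calls per direction by smallest p, and the 6 longest; 1 of the highest ratios is not reported here by name. Members, lists and rules were chosen with earlier results of these data known. Alternatives covered scaling, filters, a replicate block, each library left out, DESeq2 1.42.0, limma 3.58.1 voom, other spans, ends, overlaps and thresholds. List cuts, the strongest 80000 and 40000 regions of each list, were added after seeing the data.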

Additional observations from a re-analysis of the deposited data

How the results depend on the processing

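Leaving out each library in turn gave 2 to 23 long genes called by edgeR, 2 to 3 higher and 0 to 20 lower. Calls numbered 23 (5 higher) with spans over 400 kb, 9 (0 higher, with 2 at 500 kb) over 700 kb, and 2 (0 lower) at adjusted p under 0.01. DESeq2 called 16 and limma voom 12. Replicate numbers did not pair the libraries: same-numbered correlations were 0.02, 0.11 and −0.06. With the replicate block 15 were called, 2 higher and 13 lower, 13 of the 14 among them. Genes with fewer regions in the MS275 list numbered 154 over 400 kb. Over 700 kb, 63 genes had more and 50 fewer, the rho of region ratio and CPM was −0.50, and 43.6% and 40.4% of members were shared. At −log10 q of at least 5 the density ratio was 0.612, with 31 genes more and 160 fewer, and shares of 59.3% and 36.4%. Equal list sizes gave 1.05 (1 over all autosomal regions), 42.3% and 43.8%. Unmerged entries gave 0.921, 50.7% and 47.9%. An overlap of 50% of both regions gave 32.3% and 30.6%. Among cuts chosen after seeing the data, the strongest 80000 regions gave a ratio of 1.03 and 41.3% of the MS275 list shared. The strongest 40000 gave 1.04, a rho of −0.23 and 46.9% of the vehicle list shared. Causes of these shifts were not tested. Another 90 values of the main results met the criteria for a like value, under which counts could move by up to 1.5 times: equal list sizes gave 139 genes more and 70 fewer, spans over 400 kb 18 lower calls, and the strict q a rho of 0.04 between region ratio and RNA change, against −0.04. Of the values for single genes 250 stayed, 66 missed the RNA threshold and 13 moved. ATAC lists without replicates limit every region comparison to counting error.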

Other observations

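Chromosomes differed in the ratio of the lists. Over all regions it ran from 0.743 on chromosome 19 to 1.13 on chromosome 3, and for regions inside long genes from 0.627 on chromosome 19 to 1.26 on chromosome 12. Prkg1 and Trpm3 lie on chromosome 19, where 6 long genes held 254 regions in the MS275 list and 405 in the vehicle list. Immp2l, one of the highest ratios, lies on chromosome 12, where 9 long genes held 482 regions in the MS275 list and 382 in the vehicle list. Lrp1b and Csmd3, long genes of the same groups as Csmd1, had 68 and 31 regions in the MS275 list and 55 and 26 in the vehicle list, with intervals of the ratio that include 1. Nrg3, a growth factor of the neuregulin family, held 65 and 94, a ratio of 0.691 (0.496 to 0.959), and Nrg1 held 76 and 74, a ratio of 1.03 (0.736 to 1.43).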
